A study of Mus musculus with 4 samples.

Results

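The L1Md_A peaks are the peaks of a Zeb1 ChIP-seq list whose detailed annotation names a LINE-1 element of the L1Md_A family. They numbered 324 of the 17435 peaks in the list, and they were taken by this repeat name alone, with no measured value involved. The list came from mESC of the D3 line, an established line of mouse embryonic stem cells, at passages 5 to 8, grown without feeder cells in GS, an N2B27 medium that holds LIF (20 ng/mL), PD0325901 (1 μM, against MEK) and CHIR99021 (3 μM, against GSK-3). Fixation was in 1% formaldehyde, and shearing gave fragments of about 200 bp. There were 3 Zeb1 ChIP libraries, each made with 8 μg of antibody, and 1 input library with no antibody, all from the same untreated culture condition.

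LINE-1 elements are retrotransposons that copy themselves through an RNA. A complete mouse copy starts with a 5′ UTR that carries the promoter in an array of tandem repeats called monomers, followed by ORF1, which encodes an RNA-binding chaperone, by ORF2, which encodes an endonuclease and reverse transcriptase, and by a 3′ UTR. Most genomic copies are cut short at the 5′ end, and L1Md_A is among the young families that still hold intact copies, whose RNA is found in early embryos and in embryonic stem cells. Zeb1 is a zinc finger repressor that binds E-boxes, in particular CACCTG.

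The family was laid out on 1 reference copy, the most typical of the candidates near 18 L1Md_A peaks at which both reading frames were open and had their commonest lengths. It lies on the minus strand of chromosome 5, from base 24761061 to base 24767831 of GRCm38 (mm10), between genes by the annotation in the list, with Crygn, a lens crystallin gene, as the assigned gene. The 6771 bases of the copy hold 1124 bases before ORF1, an ORF1 of 1071 bases, an ORF2 of 3843 bases that starts 1114 bases after the start of ORF1, and 690 bases after ORF2. The stretch before ORF1 repeats with a period of 208 bases up to 269 bases before ORF1. Below, positions are counted in bases from the first base of ORF1, and the non-repeated bases between the array and ORF1 are called the leader. A pair of 30-base runs, chosen after their values were seen, show these landmarks, the first with its CG dinucleotide in capitals and the second with the start codon of ORF1 in capitals.
Tandem repeat: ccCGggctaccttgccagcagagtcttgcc
Start of ORF1: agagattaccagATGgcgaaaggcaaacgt

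The tandem repeat run is shown because it recurred at the 208-base period of the reference copy. It was present in 49 of the 107 L1Md_A peaks that were centred on the array, with a median of 3 and a maximum of 16 occurrences in 1 peak, and it occurred 5035 times in the genome. The run at the start of ORF1 occurred 3269 times in the genome and lay within 8 kb of the centre of 135 of the 324 L1Md_A peaks. Both runs therefore belong to many copies, and the peaks are located on the element through the bases around them.

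The Zeb1 motif searched was ACCTG preceded by 3 bases of which the first and the third are C or T, on both strands of each peak. Among the 126 distinct 30-base sites around its matches in L1Md_A peaks, 109 were found in 1 peak only, and the 6 most shared are shown because 136 peaks held at least 1 of them. The sixth was tied, at 13 peaks, with a variant of the site at position 106 that is not shown. Each is written along the motif with the 8 matched bases in capitals, and is named by its median position on the element.
ORF1 position 106: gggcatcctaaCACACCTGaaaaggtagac
ORF1 position 251: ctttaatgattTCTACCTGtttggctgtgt
ORF1 position 261: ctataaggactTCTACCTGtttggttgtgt
ORF1 position 456: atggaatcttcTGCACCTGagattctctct
ORF2 position 4381: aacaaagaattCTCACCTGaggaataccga
ORF2 position 4695: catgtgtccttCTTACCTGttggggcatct

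By position, all 6 of these recurrent sites lay inside a reading frame of the reference copy. At their best match on that copy, the sites at positions 106, 251 and 261 differed from it at 6, 10 and 11 of the 30 bases. A position does not show that the frame was open in the copy that carries the peak. The site at position 456 was in 55 L1Md_A peaks, for example at chrX:68428236-68428243 on the minus strand in the Gm10474 peak, and the site at position 4381 was in 41, for example at chr5:86699528-86699535 on the plus strand in the Tmprss11b peak. The sites at positions 261, 251 and 106 were in 20, 19 and 19 peaks, and that at position 4695 in 13. The sites were not specific to the family: the same 30 bases as at position 456 occurred 13395 times in the genome and in 192 of all peaks, and those at position 4381 occurred 17360 times and in 175 of all peaks. Among the peaks, 2 sites were nearly confined to the family: all 30 bases at position 251 were in 19 peaks of the whole list, 18 of them L1Md_A peaks, and those at position 4695 in 15, 13 of them L1Md_A peaks.

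The list gives, for each peak, the mean number of treatment reads, the mean number of input reads and the mean enrichment, the ratio of treatment over input after the authors' normalization for mapped reads. Values of single libraries are not in the list, which leaves their spread unmeasured and the values without an SD. Aligned reads per library were not analysed here. Peaks are features of 1 list and not replicates, and no test was made between groups of peaks. Medians and quartiles over peaks describe the list, and 95% intervals of shares are Wilson intervals that cover counting error only. A peak had to reach 20 treatment reads and 2-fold enrichment to be listed, so that values under these limits cannot appear.

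The enrichment of the L1Md_A peaks was lower than that of the list in its middle and spanned most of the list's range. Its median was 3.85, with quartiles of 2.85 and 8.01 and a range from 2.05 to 71.7, compared with a median of 6.50 and quartiles of 4.91 and 8.53 over all peaks. An enrichment of at least 5 was found in 125 L1Md_A peaks, or 38.6% (33.4 to 44.0), where 74.0% of all peaks reached it. An enrichment of at least 10 was found in 56, or 17.3%, where 14.7% of all peaks reached it, so that this share stayed near that of the list. Among the peaks of at least 5 alone, a limit set on the compared value itself, the median was 9.65 for L1Md_A and 7.45 for all peaks, and 102 of the 125 L1Md_A peaks so kept were centred before ORF1. An enrichment under 3 was found in 98, or 30.2%, against 4.79% of all peaks.

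Per peak, the L1Md_A peaks had fewer treatment reads and slightly more input reads than the list. The medians were 37.1 treatment reads against 47.4 for all peaks, and 18 input reads against 16, over a median length of 1350 bases against 1850. Per kb of peak, treatment reads were near those of the list and input reads were higher, with a median of 26.0 treatment reads against 25.1 for all peaks, and 12.4 input reads against 8.07. The rank correlation of enrichment across the 324 peaks was -0.820 with input reads per kb and 0.0282 with treatment reads per kb. Over all peaks it was -0.664 with input reads per kb. These values are given as a description, since the input is the denominator of the ratio and the treatment reads have a lower limit in the list.

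The position of a peak on the element separated high from low enrichment. All 324 peak centres could be placed on the reference copy, 267 inside an alignment and 57 by extending the nearest alignment by at most 520 bases, with a median identity of 96.9%. On the array of tandem repeats, taken as everything more than 269 bases before ORF1, lay 107 peaks, on the leader 25, on ORF1 35, on the 5′ part of ORF2 49, on its 3′ part 65 and after ORF2 43. Thus 132 peaks were centred before ORF1 and 192 from ORF1 on. Of the 57 extended placements, 50 were on the array, from alignments that ended a median of 204 bases before ORF1, short of the array. For these 50 peaks the array itself did not align to the reference copy at the centre, and the zone is a distance from ORF1 only.

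**Figure D1:**
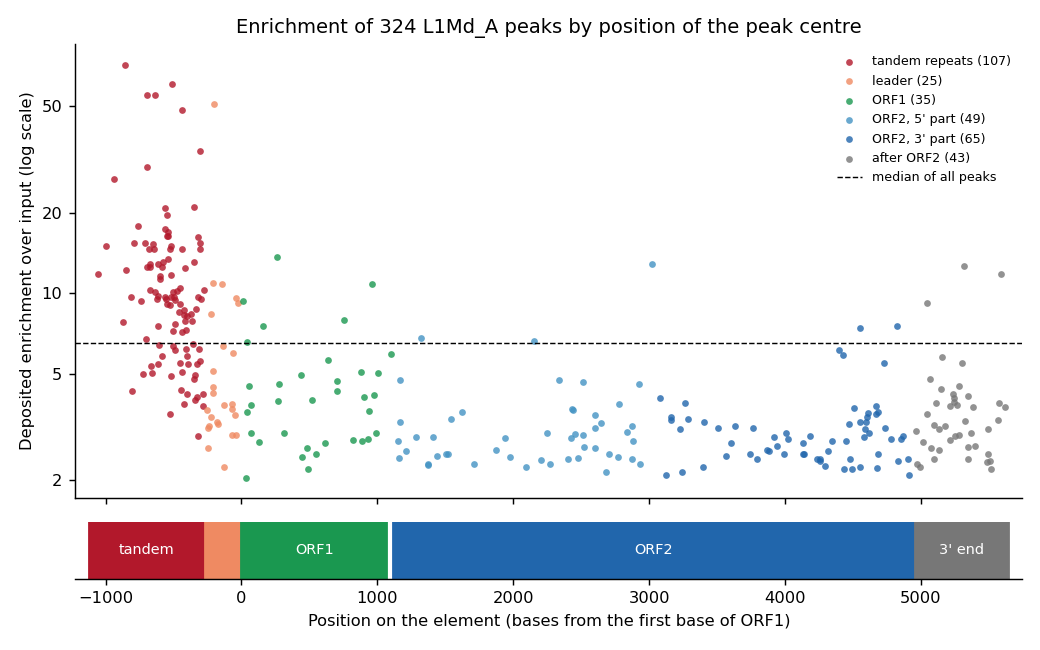
Deposited enrichment over input (vertical axis, log scale) of each of the 324 L1Md_A peaks against the position of the peak centre on the element in bases from the start of ORF1, with the element drawn below and the median of all peaks as a dashed line. The points before ORF1 reach 71.7, and from ORF1 on no point is above 13.7.

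Before ORF1, the median enrichment was 9.07, with quartiles of 5.30 and 12.9 and a range from 2.25 to 71.7. From ORF1 on, the median was 3.00, with quartiles of 2.50 and 3.84 and a range from 2.05 to 13.7. The ranges overlap up to 13.7, which is above the upper quartile of the peaks before ORF1. Still, 116 of the 132 peaks before ORF1, or 87.9%, lay above the upper quartile of the rest. The ratio of the medians was 3.02. Of the 56 L1Md_A peaks with an enrichment of at least 10, 51 were centred before ORF1, and so were all 23 with at least 15.

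Along the element the change came within the 5′ UTR, where the promoter of a LINE-1 copy lies. The peaks on the tandem repeats had a median enrichment of 9.66, with quartiles of 6.28 and 14.6, and 93 of the 107 reached 5. It was 9.82 for the 57 peaks whose centre aligned to the array and 8.72 for the 50 placed by extension. The peaks on the leader, nearer to ORF1, had a median of 3.82, and 9 of the 25 reached 5. The median was 4.00 on ORF1, 2.87 on the 5′ part of ORF2, 2.85 on its 3′ part and 3.23 after ORF2. On the reading frames and after them, between 3 and 10 peaks of a zone reached 5.

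Input reads were fewest where enrichment was highest, while treatment reads per kb were near equal on the tandem repeats and on ORF2 and lowest on the leader. Per kb of peak, treatment reads had a median of 27.6 on the tandem repeats, 19.0 on the leader, 22.9 on ORF1, 25.9 and 27.4 on the 5′ and 3′ parts of ORF2 and 29.4 after ORF2. Input reads per kb had a median of 6.15 on the tandem repeats, below the 8.07 of all peaks. They were 9.72 on the leader, 12.2 on ORF1, 21.1 and 20.2 on the parts of ORF2 and 20.0 after ORF2. Between the peaks before ORF1 and those from ORF1 on, the ratio of medians was 1.05 for treatment reads per kb and 0.348 for input reads per kb.

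**Figure D2:**
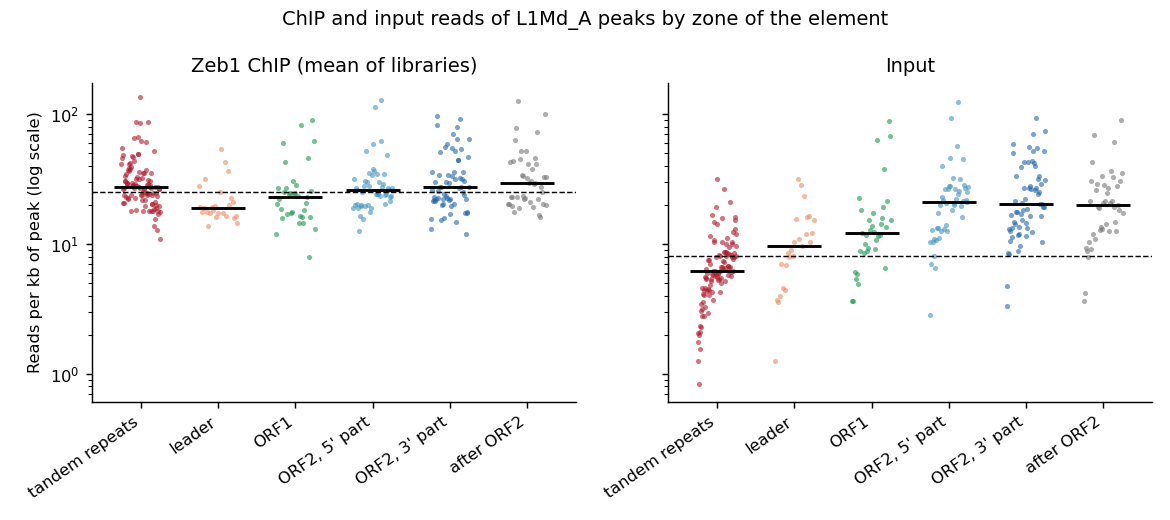
Mean treatment reads (left) and input reads (right) per kb of peak, on a log scale, for the L1Md_A peaks in each zone of the element. Points are peaks, placed from left to right by falling enrichment within a zone, bars are zone medians and the dashed line is the median of all peaks. The bars of the left panel stay between 19.0 and 29.4, and those of the right panel go from 6.15 on the tandem repeats to about 20 on ORF2.

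The zones also differed in how much of their sequence can place a read. The authors kept reads with a unique alignment, and of the 50-base words of an L1Md_A peak a median of 24.5% occurred once in the genome, against 100% over all peaks. Under 50% of the words were unique in 261 L1Md_A peaks, or 80.6%, and in 12.2% of all peaks, and no word was unique in 9 L1Md_A peaks. The median was 47.3% on the tandem repeats, 34.9% on the leader, 20.9% on ORF1, 6.35% and 9.94% on the 5′ and 3′ parts of ORF2 and 30.1% after ORF2. The part of unique sequence in the differences of input reads was not tested. Between the lower and upper quartile of unique words over the family, the ratio of the median enrichment before ORF1 to that from ORF1 on was 3.07, from 63 and 100 peaks.

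The peaks before ORF1 held more CpG than the rest of the element, though not more than the list. Their median was 22.6 CpG per kb, against 8.00 from ORF1 on, 40.7 over all peaks and 23.4 over all peaks beyond 5 kb of a TSS. Between 251 and 500 bases before ORF1, the peak sequence held 51.2 CpG per kb, and in the next 250 bases, on the leader, 8.58. In the reference copy itself, 47.2 CpG per kb stood before ORF1 and 8.33 in ORF2. Over all peaks, the rank correlation of CpG per kb with enrichment was 0.301. It was 0.653 across the 324 L1Md_A peaks, 0.462 within the 132 before ORF1 and 0.0575 within the 192 from ORF1 on. These points share the element's sequence and the same libraries, and the values are a description.

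The same copies could be compared with themselves in 4 cases, where 1 copy carried a peak on each side of the start of ORF1. The enrichment before ORF1 was higher in 4 of 4. On the copy in an intron of Stk3, a kinase gene of the Hippo pathway, it was 71.7 against 3.30, and on the copy assigned to Hdhd1a it was 29.8 against 2.20. It was 4.20 against 3.15 on the copy assigned to Grip1os2. By placement, the 324 peaks fell on 319 copies, of which 5 carried 2 peaks.

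Most of these copies were long ones. The leader, the middle of ORF1 and the 3′ end were all found in line for 241 of the 324 peaks, 118 of the 132 before ORF1 and 123 of the 192 from ORF1 on. An open frame of at least 2400 bases, as ORF2 would give, lay within 8 kb of 109 peaks, on the strand of the alignment in 101 of them. Placed by this frame without any alignment, 81 peaks lay before its start, with a median enrichment of 8.20, and 28 after it, with 3.10. Copies with ORF2 open over at least 3800 bases and an open ORF1 carried 31 peaks, of which 26 were centred before ORF1. Their median enrichment was 9.76 before ORF1, and the other 5 peaks had 4.10.

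The number of copies in the genome gives the other side of this count. A 200-base segment of the leader had 3440 matches of at least 95% identity in the genome, and 76 of them, or 2.21% (1.77 to 2.76), lay in an L1Md_A peak. For a segment of ORF1, 54 of 4830 did, or 1.12%. For segments of the 5′ part of ORF2, the 3′ part and the stretch after ORF2, the shares were 0.261% of 11125, 0.354% of 14132 and 0.435% of 13101. The segments also match other families, and peaks of any annotation held 2.88% of the leader matches, 1.64% of those of ORF1, 0.881% and 1.17% of those of the 5′ and 3′ parts of ORF2 and 149 of the 13101 after it. At 90% identity the share of matches in an L1Md_A peak was 1.89% for the leader and 0.367% for ORF1. The part of read placement in these shares was not tested.

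The same division was present in the other large LINE-1 families of the list. Among 1203 L1Md_T peaks, whose 5′ UTR is made of another monomer type, the median enrichment was 9.65 for the 749 before ORF1 and 3.51 for the 450 from ORF1 on, with 4 not placed. Among 569 L1Md_F2 peaks it was 7.70 for 135 and 3.01 for 434. The ratio of medians was 2.75 in L1Md_T and 2.56 in L1Md_F2, beside 3.02 in L1Md_A. The ratio of input reads per kb was 0.413 and 0.476, beside 0.348, and that of treatment reads per kb 0.940 and 1.10, beside 1.05. The families share the libraries and the reference copy, and the difference between their ratios was not tested. The share of peaks centred before ORF1 was 132 of 324 in L1Md_A, 749 of 1203 in L1Md_T and 135 of 569 in L1Md_F2, which goes in the order of the families' overall medians of 3.85, 7.60 and 3.50.

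**Figure D3:**
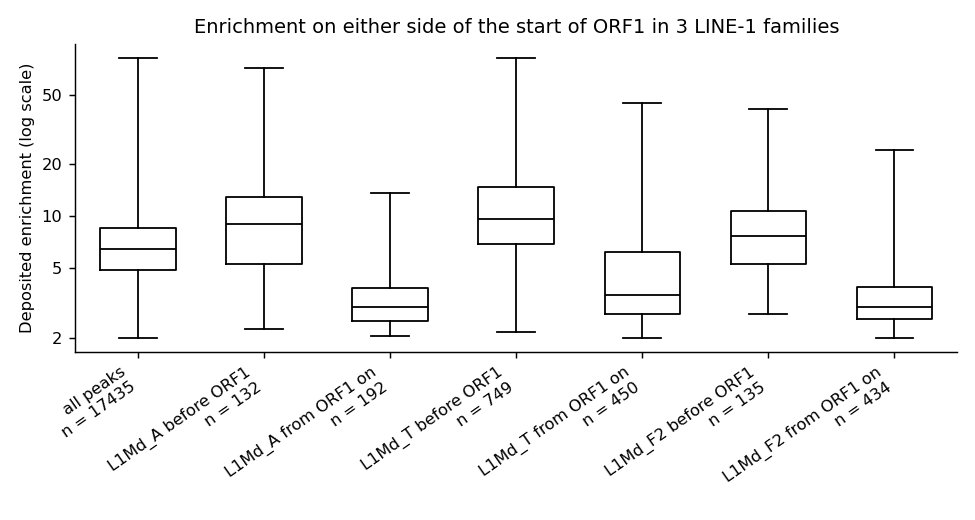
Deposited enrichment (log scale) of all peaks and of the peaks before ORF1 and from ORF1 on in the families L1Md_A, L1Md_T and L1Md_F2. Boxes span the quartiles with the median as a line, and whiskers span the lowest to the highest peak. In each family the box before ORF1 lies above the median of the peaks from ORF1 on.

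The Zeb1 motif was less frequent in L1Md_A peaks than in the list. At least 1 match was present in 192 peaks, or 59.3% (53.8 to 64.5), where 76.8% of all peaks had one, and in 68.0% of 5946 other peaks with lengths between the quartiles of the family. Windows of equal length on either side of the L1Md_A peaks had a match in 55.2% of 648, and consecutive 1400-base tiles of the genome in 55.7%. The share in the peaks was close to both. The windows can hold other parts of the same element and are not a separate background. The rate was 0.682 matches per kb, against 0.889 over all peaks. Within the central 200 bases of a peak the share was 9.26%, against 16.7% of all peaks.

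By zone, the share of peaks with a match was highest for peaks centred on ORF1 and on the leader, and the matches themselves lay mostly in ORF1. All 35 peaks on ORF1 held a match, as did 24 of 25 on the leader and 67 of 107 on the tandem repeats. On the 5′ part of ORF2 6 of 49 did, on its 3′ part 47 of 65 and after ORF2 13 of 43. Counted by where the match itself lies, ORF1 held 2.13 matches per kb of peak sequence, the 3′ part of ORF2 0.692 and the tandem repeats 0.433, while the 5′ part of ORF2 held 0.0869 and the stretch after ORF2 0.167, and the leader had 2 matches in the 153 peaks that reached it. The 6 recurrent sites shown above are among the matches counted here, and so add to the rates of ORF1 and of the 3′ part of ORF2.

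Of the 193 matches in the 132 peaks before ORF1, 134 lay in ORF1, 57 in the tandem repeats and 2 in the leader. A match before ORF1 was present in 38 of these peaks, or 28.8%, with a median enrichment of 7.32, and the other 94 had a median of 9.32. With matches anywhere in the peak, the 91 peaks before ORF1 that held one had a median of 7.30 and the 41 that held none had 11.7. From ORF1 on, the medians were 3.12 for 101 peaks with a match and 2.90 for 91 without. Before ORF1, enrichment was thus not higher in the peaks with a match, but this split goes with position. The leader peaks, with a median enrichment of 3.82, held a match in 24 of 25. Those on the tandem repeats, with 9.66, held one in 67 of 107. Over the whole family the median was 4.28 for the 192 peaks with a match and 3.40 for the 132 without. The part of the motif apart from position was not tested.

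The plain E-box CACCTG, a match of which overlaps the Zeb1 motif where C precedes ACCTG, was present in 69.4% of L1Md_A peaks and 82.1% of all peaks, and in 56.5% of the genome tiles. Its rate was 1.11 per kb of L1Md_A peak sequence and 1.19 over all peaks. By where the match lies, it was 2.11 per kb on ORF1, 1.98 on the leader, where the Zeb1 motif was rare, 1.5 on the 3′ part of ORF2 and 0.845 on the tandem repeats. Of the 149 peaks that reached the tandem repeats, 60 held a match there, while 98 of the 107 centred there held one somewhere in the peak. The wider E-box CANNTG was in 323 of the 324 peaks and in 99.9% of all peaks and of the tiles, and so separates nothing. GCCATNTT, the core of the sites for YY1, a zinc finger factor known to bind LINE-1 promoters, was in 54.0% of L1Md_A peaks, 34.2% of all peaks, 28.0% of the tiles and 52.0% of the windows beside the L1Md_A peaks. By zone it was in 56 of the 107 peaks on the tandem repeats, 8 of the 25 on the leader, 16 of the 35 on ORF1, 15 of the 49 and 40 of the 65 on the 5′ and 3′ parts of ORF2 and 40 of the 43 after ORF2. It was in 84.0% of L1Md_T and 68.9% of L1Md_F2 peaks. A match here is only a run of letters, and nothing was measured of YY1.

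**Figure D4:**
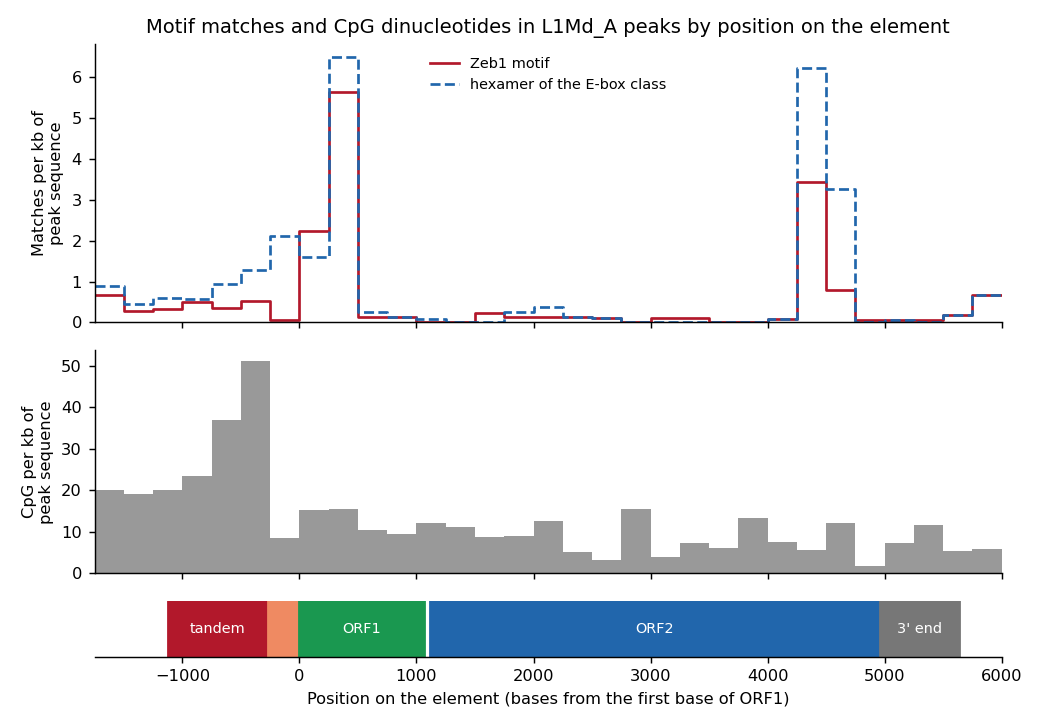
Matches of the Zeb1 motif and of the CACCTG hexamer per kb of L1Md_A peak sequence (top) and CpG per kb (middle) in bins of 250 bases along the element, drawn at the bottom. Motif matches peak between 250 and 499 bases into ORF1, at 5.62 per kb, and between 4250 and 4499 in ORF2, at 3.43 per kb, while CpG is highest before ORF1, at 51.2 per kb.

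The single peaks of highest enrichment lay before ORF1 and rested on few input reads. The peak in intron sequence of Stk3, at chr15:35117051-35118650, had 66.7 treatment reads and 2 input reads for an enrichment of 71.7, and was centred 856 bases before ORF1. The peak assigned to Api5, an apoptosis inhibitor gene, had 80.2 treatment and 3 input reads for an enrichment of 60.5. Those assigned to 9430037G07Rik and to Crygn had an enrichment of 55.4 each, from 78 and 73.6 treatment reads and 3 input reads each, and the Crygn peak lies on the reference copy. The tenth, assigned to Gm10474, had 36 treatment and 4 input reads for an enrichment of 21.1.

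Between these, the peaks assigned to Filip1, 6530411M01Rik, Wdr72, Hdhd1a and Pla2g4a, the gene of cytosolic phospholipase A2, had enrichments of 51.1, 48.6, 34.0, 29.8 and 26.7. All 10 had between 1 and 4 input reads, so that a difference of 1 read in the input would move the ratio widely. Of the 10, 9 were placed on the tandem repeats and the Filip1 peak on the leader, 205 bases before ORF1. The placement was by extension from the leader for 5 of the 10, those of Api5, 9430037G07Rik, 6530411M01Rik, Wdr72 and Gm10474. A Zeb1 motif match was present in 6 of the 10 and absent from the peaks of Stk3, Crygn, Filip1 and Pla2g4a.

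Ranked by treatment reads, other peaks came first. The peak assigned to Zscan4b, of a gene cluster known for bursts of expression in embryonic stem cells, had 218 treatment and 51 input reads, an enrichment of 9.66, and lay on the tandem repeats 25500 bases from the TSS. The peak assigned to Mctp2 had 174 treatment and 31.9 input reads, an enrichment of 9.54, and was the longest of the family at 5400 bases. In contrast, the peaks assigned to Sugct, Ptchd4 and Bard1, the partner gene of Brca1, had 176, 170 and 150 treatment reads but 169, 93 and 122 input reads, and an enrichment of 2.45, 3.93 and 2.67. These last lay on ORF2 or after it. The next longest peaks were those assigned to E230016M11Rik, 3850 bases with an enrichment of 9.04, and Gm5885, 3300 bases with 2.75.

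At the lower end, the peak assigned to Zwint, a kinetochore gene, had 29.5 treatment and 34.5 input reads and an enrichment of 2.05, and lay on ORF1. The peaks assigned to Olfr1323, an olfactory receptor gene, and Heph, a ferroxidase gene, had an enrichment of 2.10 each and lay on the 3′ part of ORF2. In these peaks the deposited ratio is above the plain ratio of the deposited means, as it is in the list, by a median factor of 2.07 over all peaks and 2.16 over the L1Md_A peaks.

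The L1Md_A peaks stood apart from the list in where they lie in the genome. By the annotation in the list, 258 of the 324, or 79.6% (74.9 to 83.7), were intergenic, 58 in introns, 7 within 5 kb of a TSS and 1 in an exon, whereas 17.2% of all peaks were intergenic and 61.4% in the promoter class. The median distance to the TSS of the assigned gene was 136345 bases, against 726 over all peaks, and it was over 100 kb for 183 L1Md_A peaks, or 56.5%, against 9.99% of all peaks. Enrichment was near equal inside and outside genes, with a median of 3.80 for the 53 peaks inside protein-coding gene bodies and 3.85 for the others. Another peak of the list lay within 10 kb of 27 members, or 8.33%. The same share over all peaks was not counted, so this count cannot be read as low or high.

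Inside gene bodies, 39 of the 53 peaks lay on an element of the strand opposite to the gene, or 73.6% (60.4 to 83.6), and 14 on one of the same strand. This share was not counted for L1Md_A copies without a peak or for other families. It therefore cannot be called a trait of these peaks. The genes Stk3, Grip1 and Lipo2 hold 2 of these peaks each, on 1 copy per gene, so that the 53 peaks are not all separate elements. Over all L1Md_A peaks the element was on the plus strand in 154 and on the minus strand in 170. The Stk3 and Filip1 peaks, of genes on the minus strand, both lie on elements of the plus strand. Of the 7 peaks within 5 kb of a TSS, that at Rprl2 had an enrichment of 13.1 and that at 2010315B03Rik 9.20, both centred before ORF1, as were those at Vmn1r56, a vomeronasal receptor gene, with 5.15 and Zfp81, a zinc finger gene, with 4.80. The peaks at Grip1os2, at Slc51b, the gene of a bile acid transporter subunit, and at Gm10639 lay on ORF2 or after it, with 3.15, 2.95 and 2.78. Rprl2 was the gene assigned the most L1Md_A peaks, with 5 between 4545 and 681430 bases from its TSS and enrichments of 13.1, 6, 5.85, 3 and 2.65, of which the peak of 3 lay on ORF1 and the others before it. In all, 298 genes were assigned, 22 of them 2 peaks each.

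By chromosome, the X stood out from the list but not from the genome's bases. It held 26 L1Md_A peaks, or 8.02% (5.53 to 11.5), against 1.58% of all peaks and 6.18% of the reference bases, and 10.2% of the leader matches of at least 95% identity. Chromosome 3 held 8.95% against 4.07% of all peaks, and 8.08% of the leader matches. Chromosome 14 held 6.17% against 3.10% of all peaks, and 3.98% of the leader matches. Chromosome 1 held 9.26% against 5.80% of all peaks, and 8.31% of the leader matches. Chromosome 11 held 8 L1Md_A peaks, or 2.47%, against 8.02% of all peaks, and 2.21% of the leader matches. The Y chromosome had 1 L1Md_A peak, or 0.309%, against 0.184% of all peaks, and 6.16% of the leader matches. That peak lay after the start of ORF1. The enrichment on either side of ORF1 did not rest on the sex chromosomes: on the autosomes the ratio of the medians was 2.88.

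**Figure D5:**
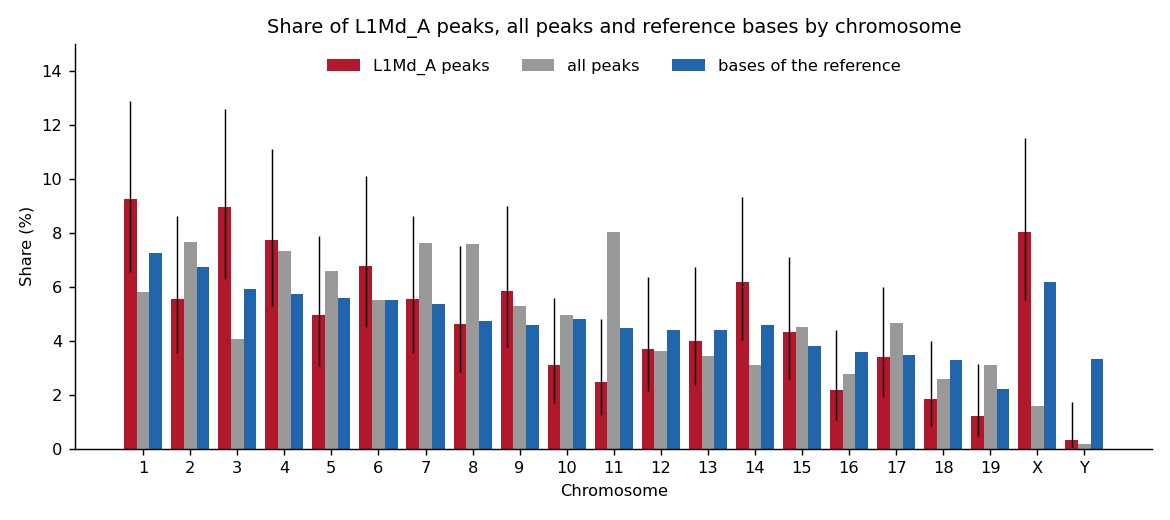
Share of L1Md_A peaks (with 95% Wilson intervals), of all peaks and of the reference bases, in percent, by chromosome. On the X the share of L1Md_A peaks is 8.02% beside 1.58% of all peaks, and on chromosome 11 it is 2.47% beside 8.02%.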

How the data were processed

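Zeb1 ChIP-seq was measured in 3 ChIP libraries and 1 input library of mESC in GS. The authors trimmed the reads, drew an equal number per sample, kept unique alignments to mm10 (STAR 2.4.2a), removed duplicates (Picard 1.136), called broad peaks per library against the input, unified those present in at least 2 libraries, averaged the values and annotated them with HOMER 4.7. The deposited read columns are a signal (mean reads per peak), and the deposited enrichment is a ratio normalized for mapped reads. Since every deposited p-value is 0, none was used to rank peaks.

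Members were taken by repeat name. Members, motifs, zones and alternatives were chosen with earlier results of these data known. Sequence came from GRCm38.p6 (RefSeq), chromosomes 1 to 19, X and Y. Windows of 8 kb on either side of each peak centre were aligned with blastn 2.17.0 (E-value limit 1e-10, alignments of at least 100 bases), candidates for the reference copy on chromosome 18 were left out, ORF2 was split at its midpoint, and words were counted at every 10 bases. The placement and word counts were tested on simulated data. Peaks named are the 10 of highest enrichment, the 5 with the most treatment reads, the 3 lowest, the 3 longest, those within 5 kb of a TSS and those of genes with 3 or more; those of Grip1os2 and Tmprss11b were named after their values were seen, and the values of 1 copy with a peak on each side of ORF1 are not reported here. Computation ran in Python 3.11.15 with numba 0.67.0, pandas 2.3.3, NumPy 2.4.6 and SciPy 1.17.1, and figures were drawn with matplotlib 3.10.9.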

Additional observations from a re-analysis of the deposited data

How the results depend on the processing

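With peaks of at least 5-fold enrichment alone, 125 members remained. The median enrichment was 9.65 against 7.45 over all peaks so limited, a limit that selects on the compared value. The Zeb1 motif share was 66.4%, against 79.4% of all peaks so limited. With at least 40 treatment reads the median enrichment was 4.77, treatment reads per kb 36.8 and input reads per kb 16.4. Between the quartiles of the members' lengths, treatment reads per kb were 27.9. The ratio of the deposited means with 1 read added gave a median of 1.77, against 3 over all peaks. The motif share was 69.4% for CACCTG, against 82.1% of all peaks, and 9.26% in the central 200 bases, against 16.7%. It was 40.4% in the central 1000 bases, against 55.4% of all peaks, and 38.3% on the forward strand alone, against 54.4%. Unique words were 17.8% at 36 bases and 48.4% at 100 bases. The ratio of the median enrichment before ORF1 to that from ORF1 on, whose alternatives were chosen after seeing the data, was 3.68 with at least 40 treatment reads, and between 2.65 and 3.18 under the others. In all, 15 of 39 alternatives moved a value beyond its 95% interval or, for the number of peaks, by over 1.5 times; the cause was not tested. Leaving out a library needs values per library and was not run. The list's means hide the spread between libraries, and input reads under 5 limit the highest ratios.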
